A study of Mus musculus with 12 samples.

Results

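Sphingosine 1-phosphate (S1P) is a lipid signal that cells make, export, sense and break down, and the 8 genes followed here cover each of these steps. Sphk1 and Sphk2 encode the kinases that make S1P, Spns2 an exporter, S1pr1, S1pr2 and S1pr3 cell-surface receptors, and Sgpl1 and Sgpp1 the lyase and the phosphatase that remove it. The members were taken by symbol: the array annotation gave one of them as the only symbol for 16 of 45037 probe sets, a probe set being a group of short probes that reads a stretch of a transcript. They make up 8 of 18193 named genes. For a gene with several probe sets, the one with the highest mean over the 12 arrays led, and the others served as a check. All 8 genes had a leading probe set above the filter on dim signals, a mean log2 signal of 3.056, which left 12309 genes for testing. The second probe set of Sphk2 was the only one of the 16 below it.

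RNA of mouse lung was hybridised to short-oligonucleotide arrays, with 3 arrays in each of 4 groups. The mice were male C57BL/6 aged 8 to 12 weeks, either wild type or nmMLCK-/-, the latter lacking the non-muscle form of the kinase that phosphorylates myosin light chain, a product of Mylk. The sources used here do not say how that allele was made. Wild-type and knockout mice breathed on their own (SB) or were ventilated for 4 h at a high tidal volume, a protocol named VILI after the ventilator-induced lung injury it is meant to give. The sample labels state 40 ml/kg and the series text 30 ml/kg for that volume, delivered at 65 breaths per min with 0 cm H2O of end-expiratory pressure. No group with a low tidal volume was analysed here, so being ventilated and being ventilated at a high volume cannot be told apart. The series text gives 3 animals per group, and p-values measure the spread between these 12 arrays.

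S1P circulates in blood, and its receptors are coupled to different G proteins. S1PR1 on endothelial cells acts through Gi and Rac to tighten cell junctions, while S1PR2 and S1PR3 can also promote actomyosin contraction, which opens the barrier. The non-muscle myosin light chain kinase that the knockout lacks is one of the proteins through which S1P acts on the endothelial cytoskeleton. Inside the cell, the lyase cleaves S1P for good, while the phosphatase returns it to sphingosine, which can be built into ceramide again.

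The targeted gene, Mylk, had log2 signals of 13.05, 12.98 and 12.98 in wild-type SB lungs and of 12.83, 12.80 and 12.71 in knockout SB lungs. The difference was -0.22 ± 0.08 (SE) and did not pass limma's moderated test (adjusted p = 1). Which of the gene's transcripts this probe set reads is not given, so it does not check the genotype labels. The mean over 11 lung epithelium markers was between 13.50 and 13.82 on all arrays, and that over 13 endothelial markers between 12.26 and 12.60. Along the second principal component of all genes tested, wild-type SB array 3 (33.2) and knockout SB array 2 (20.2) stood apart from the other SB arrays, which lay between -26.2 and -12.4. With each of 11 neutrophil markers set to its own mean over the arrays, their median was 1.08 on wild-type SB array 3, within the VILI range, and -2.10 on knockout SB array 2. On knockout VILI array 3, 301 of 22443 probe sets read over 1 log2 unit below every other array, against 0 to 50 on the rest. Results that rest on these 3 arrays are given with and without them.

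Ventilation raised 3 of the 8 genes over both genotypes together, by limma's moderated test at an adjusted p under 0.05. Sphk1 rose 2.61-fold, S1pr1 1.36-fold and Sgpl1 1.25-fold, and no member fell. Over all genes tested, 36.7% passed in this comparison, 14.1% higher and 22.6% lower. The members' share in either direction is thus near the background, though all 3 calls were rises. In wild-type lungs alone 1 member passed (S1pr1, higher) against 15.4% of all genes, 6.34% higher and 9.03% lower. In knockout lungs alone none passed against 20.7% (8.12% higher and 12.6% lower), with 2 members (Sphk1 and Sgpl1) at an unadjusted p under 0.05. The members' median log2 difference was 0.12 in wild type, 0.05 in knockout and 0.09 over both, where the median of all genes was -0.05 each time. Without both SB arrays that stood apart, the members that passed numbered 2 in wild type (S1pr1 and Sphk1), 1 in knockout (Sphk1) and 1 over both (Sphk1), and all genes passed at 17.9%, 19.5% and 34.8%. In RNA of whole tissue, a change in the number of cells of a type and a change in RNA per cell cannot be told apart.

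**Figure D1:**
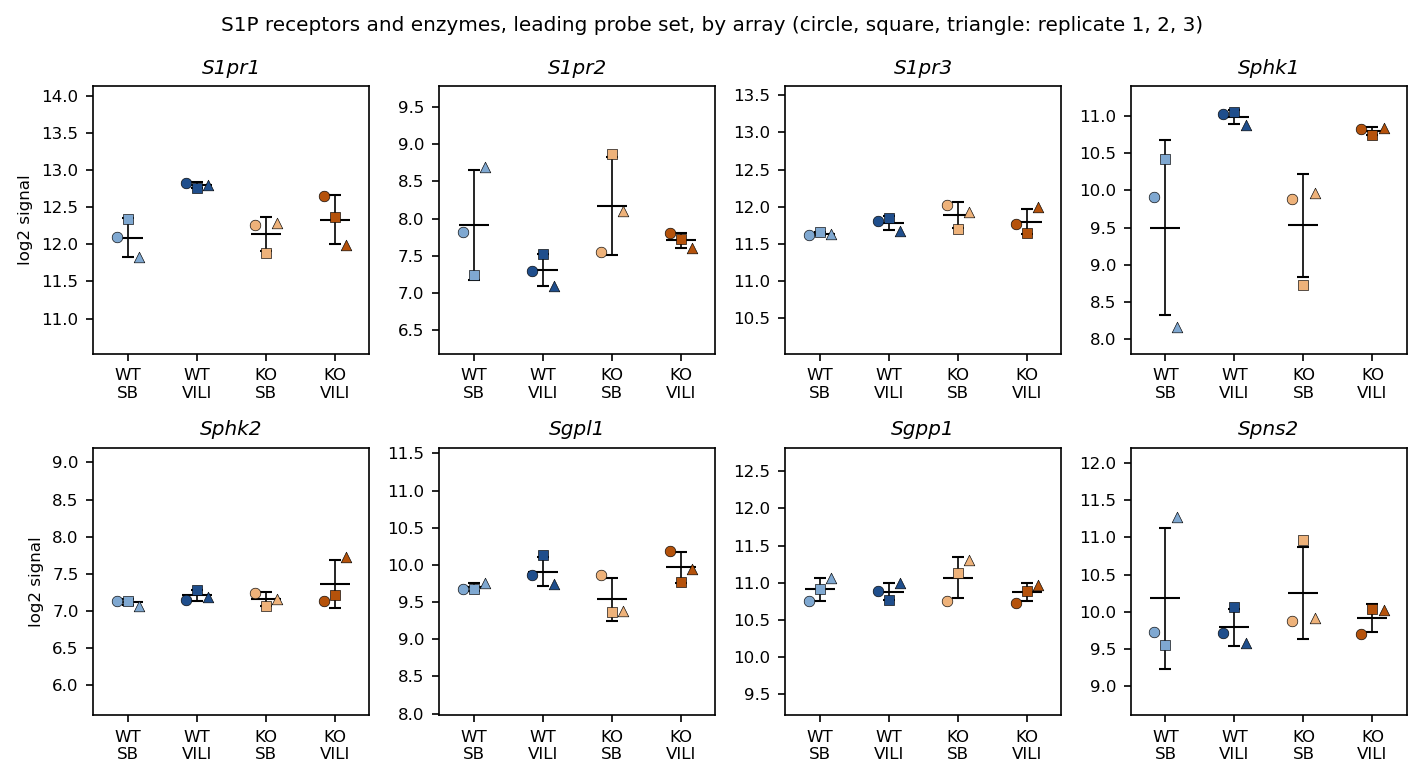
Log2 signal (vertical axis) of the leading probe set of each gene on every array, by group. Long bars are group means and whiskers 1 SD over 3 arrays. Sphk1 lies at 10.74 or above on all 6 VILI arrays and at 10.42 or below on all 6 SB arrays, while S1pr1 is high and tight, from 12.76 to 12.83, in wild-type VILI lungs only.

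Sphk1, the kinase induced in many cell types by inflammatory signals, showed the largest difference of the 8 genes. Its leading probe set gave log2 signals of 9.91, 10.42 and 8.16 in wild-type SB lungs and of 11.03, 11.05 and 10.88 after ventilation. In knockout lungs the signals were 9.88, 8.73 and 9.97 under SB and 10.82, 10.74 and 10.84 after ventilation. The groups did not overlap in either genotype, and the 6 VILI arrays lay between 10.74 and 11.05 while the 6 SB arrays ran from 8.16 to 10.42. Sphk1 was the only 1 of the 8 genes with all 6 VILI arrays on one side of all 6 SB arrays, against 17.9% of all genes. The SB arrays with the lowest values, 8.16 and 8.73, are those that stood apart.

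The rise of Sphk1 was 1.49 ± 0.50 log2 units in wild type (SE; adjusted p = 0.0682, limma) and 1.28 ± 0.50 in knockout (adjusted p = 0.0915). Over both genotypes it was 1.38 ± 0.35 (adjusted p = 0.012), and it passed whichever of the 12 arrays was left out, with values from 1.05 to 1.61. Without both SB arrays that stood apart the rise was smaller and more precise: 0.82 in wild type (adjusted p = 0.00564), 0.88 in knockout (adjusted p = 0.00521) and 0.85 over both (adjusted p = 0.000447). It also passed in wild type without wild-type SB array 2, the highest SB array, at 1.95 (adjusted p = 0.0242). In knockout it passed without wild-type SB array 3, an array outside that comparison, at 1.28 (adjusted p = 0.0117). Leaving out any other single array gave no call in either genotype alone. For knockout VILI array 3 the adjusted p was then 0.0896 in wild type and 0.179 in knockout. Sphk1 thus had higher signal after ventilation in both genotypes, by an amount that depends on the 2 SB arrays that stood apart.

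A second Sphk1 probe set read 8.04, 9.04 and 7.82 in wild-type SB lungs and 9.97, 9.60 and 9.40 in wild-type VILI lungs. In knockout lungs it read 8.10, 7.44 and 8.11 under SB and 9.49, 9.71 and 9.59 after ventilation. All 6 VILI arrays again lay above all 6 SB arrays. Tested among 22443 probe sets, of which 11.4% passed in wild type, 17% in knockout and 32% over both, it rose by 1.36 ± 0.30 in wild type (adjusted p = 0.0193) and by 1.71 ± 0.30 in knockout (adjusted p = 0.0068). Over both genotypes it rose by 1.54 ± 0.21 (adjusted p = 0.000796).

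The Sphk1 windows around the annotated transcription starts are shown because this gene had the largest change of the 8. RefSeq windows (build GRCm38.p6) of 250 bases before to 50 after a start were searched on both strands for 3 motifs of inducible transcription factors, and capitals mark a match. They were AP-1 (TGANTCA), CRE (TGACGTCA) and the E-box (CACGTG), and no match overlapped one of another motif. Of 32851 windows of this length over all genes, 7.81% held the AP-1 letters, 1.79% the CRE and 7.15% the E-box. Sphk1 has 5 windows, all on the plus strand. The window at chr11:116531587-116531886 and the one that overlaps it held 1 AP-1 match. The window at chr11:116532194-116532493 and the one that overlaps it held 1 E-box, and the remaining window held none of the 3 motifs. A match describes the letters and was not tested against the arrays.
Sphk1 window 2: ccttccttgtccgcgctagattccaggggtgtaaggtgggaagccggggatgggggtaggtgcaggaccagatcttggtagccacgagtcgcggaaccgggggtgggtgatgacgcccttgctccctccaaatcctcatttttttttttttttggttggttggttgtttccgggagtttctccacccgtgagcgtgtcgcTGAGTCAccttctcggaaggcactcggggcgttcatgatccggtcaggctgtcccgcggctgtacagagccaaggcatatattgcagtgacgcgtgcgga
Sphk1 window 4: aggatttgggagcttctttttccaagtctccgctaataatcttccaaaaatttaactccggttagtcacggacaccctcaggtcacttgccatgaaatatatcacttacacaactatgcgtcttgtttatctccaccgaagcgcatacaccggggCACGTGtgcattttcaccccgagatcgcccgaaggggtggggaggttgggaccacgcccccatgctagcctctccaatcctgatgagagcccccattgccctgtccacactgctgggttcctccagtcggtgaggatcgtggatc

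Sphk2, the kinase found mainly in the nucleus and at organelles, read 7.14, 7.14 and 7.07 in wild-type SB lungs and 7.15, 7.28 and 7.19 in wild-type VILI lungs. Knockout lungs read 7.24, 7.07 and 7.16 under SB and 7.13, 7.22 and 7.73 after ventilation. Every array but knockout VILI array 3 lay between 7.07 and 7.28. The difference over both genotypes was 0.15 ± 0.10 (SE; adjusted p = 0.262), with a 95% interval from -0.07 to 0.36. Without that array it was 0.05 ± 0.06. The second probe set of Sphk2 was below the filter, at 2.36 to 2.43 on all arrays, and was read no further. One of the 2 Sphk2 windows held a CRE match.

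Spns2, which carries S1P out of endothelial cells, read 9.73, 9.55 and 11.27 in wild-type SB lungs and 9.87, 10.97 and 9.91 in knockout SB lungs. After ventilation it read 9.72, 10.07 and 9.58 in wild type and 9.70, 10.04 and 10.02 in knockout. On 10 of the 12 arrays the signal lay between 9.55 and 10.07, and the values of the other 2, at 11.27 and 10.97, were the SB arrays that stood apart. The difference after ventilation was -0.40 ± 0.43 in wild type (adjusted p = 0.565) and -0.33 ± 0.43 in knockout (adjusted p = 0.616), and neither passed. Without those 2 arrays the values turned positive, at 0.15 in wild type and 0.03 in knockout, the latter -0.02 with knockout VILI array 3 left out as well. The sign of the Spns2 difference thus turned on 2 arrays.

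S1pr1, the barrier-protecting receptor of endothelial cells and the receptor that draws lymphocytes out of tissue, rose in wild-type lungs. It read 12.10, 12.34 and 11.83 under SB and 12.83, 12.76 and 12.80 after ventilation. The wild-type groups did not overlap, and the VILI arrays lay close together. The rise was 0.71 ± 0.18 log2 units (SE; adjusted p = 0.0275, limma), or 1.63-fold.

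In knockout lungs S1pr1 read 12.26, 11.88 and 12.29 under SB and 12.65, 12.37 and 11.99 after ventilation. These groups overlapped, since knockout VILI array 3 lay below 2 of the 3 SB arrays. The difference was 0.19 ± 0.18 and did not pass (adjusted p = 0.483), and without that array it was 0.36 ± 0.17 (adjusted p = 0.184). Over both genotypes S1pr1 rose by 0.45 ± 0.13 (adjusted p = 0.0211). Ordered by mean, the groups ran from wild-type VILI (12.80 ± 0.04, SD, n = 3) through knockout VILI (12.33 ± 0.33) and knockout SB (12.14 ± 0.23) to wild-type SB (12.09 ± 0.26), and the last 3 overlapped.

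The S1pr1 call in wild type was close to the threshold. It was lost without wild-type SB array 1 (0.71, adjusted p = 0.0769) or 3 (0.58, adjusted p = 0.0739), and without wild-type VILI array 1 (0.69, adjusted p = 0.0781), 2 (0.73, adjusted p = 0.0652) or 3 (0.71, adjusted p = 0.075). It held without both SB arrays that stood apart, at 0.58 (adjusted p = 0.0468), where the value over both genotypes was 0.32 and did not pass (adjusted p = 0.0691). With knockout VILI array 3 left out as well, the value over both genotypes was 0.40 and passed (adjusted p = 0.00871). S1pr1 is the only symbol of 1 probe set, so no second reading of the gene was used here.

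S1pr2, a receptor that can open the endothelial barrier, read 7.82, 7.24 and 8.70 in wild-type SB lungs and 7.30, 7.52 and 7.10 in wild-type VILI lungs. In knockout lungs it read 7.55, 8.87 and 8.10 under SB and 7.81, 7.72 and 7.60 after ventilation. The highest values, 8.70 and 8.87, were again those of the SB arrays that stood apart. The difference was -0.61 ± 0.37 in wild type (adjusted p = 0.296), -0.47 ± 0.37 in knockout (adjusted p = 0.39) and -0.54 ± 0.26 over both (adjusted p = 0.13). The last of these passed only without wild-type SB array 2, at -0.71 (adjusted p = 0.0425), and without both SB arrays that stood apart it was -0.17 ± 0.15 (adjusted p = 0.417). A second S1pr2 probe set gave -0.05 ± 0.15 over both genotypes (adjusted p = 0.813), with all arrays but knockout SB array 2 (8.03) between 6.91 and 7.31.

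By their leading probe sets, Spns2 and S1pr2 were both high, and Sphk1 and S1pr1 both low, on the 2 SB arrays that stood apart. The second Sphk1 probe set was also lowest there, at 7.82 and 7.44. The second S1pr2 probe set read 8.03 on knockout SB array 2, but 7.30 on wild-type SB array 3, within the range of the other arrays. The windows of Spns2 and S1pr2 are shown beside those of Sphk1 because of the leading probe sets. That of S1pr2, on the minus strand at chr9:20976744-20977043, held 1 CRE match, and that of Spns2, on the minus strand at chr11:72474978-72475277, held none of the 3 motifs. The windows shown here and above thus share none of the motifs searched. Windows were matched for 7 of the 8 genes, 12 in all, and those of S1pr3, Sgpl1 and Sgpp1 held no match.
S1pr2 window 1: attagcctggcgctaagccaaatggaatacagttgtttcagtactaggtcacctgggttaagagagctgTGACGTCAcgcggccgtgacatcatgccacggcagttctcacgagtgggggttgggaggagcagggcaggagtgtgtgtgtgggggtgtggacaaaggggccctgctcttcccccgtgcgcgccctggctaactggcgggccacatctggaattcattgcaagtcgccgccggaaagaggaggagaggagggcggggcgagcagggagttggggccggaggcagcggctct
Spns2 window 1: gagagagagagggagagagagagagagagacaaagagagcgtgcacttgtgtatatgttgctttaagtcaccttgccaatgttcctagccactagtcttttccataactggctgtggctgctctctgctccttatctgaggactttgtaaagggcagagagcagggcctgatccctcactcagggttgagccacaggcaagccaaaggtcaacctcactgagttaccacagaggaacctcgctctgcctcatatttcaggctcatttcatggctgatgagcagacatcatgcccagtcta

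**Figure D2:**
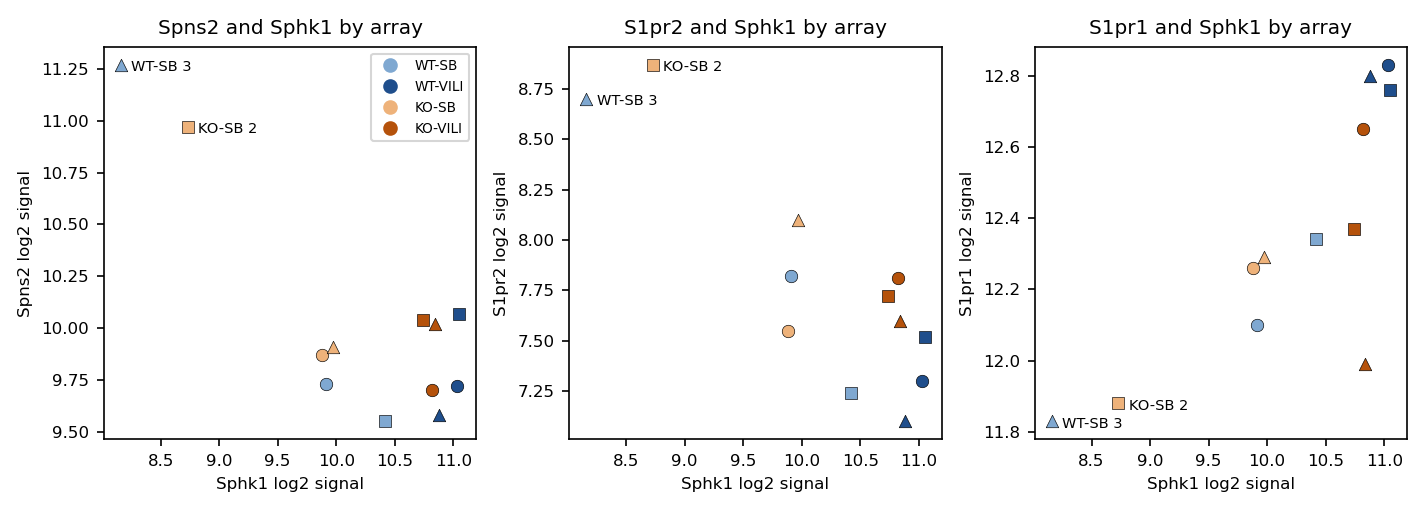
Log2 signal of Spns2, S1pr2 and S1pr1 (vertical axes) against that of Sphk1 (horizontal axes), 1 point per array, with colour for the group and shape for the replicate number. Wild-type SB array 3 and knockout SB array 2 lie alone at a Sphk1 signal of 8.16 and 8.73, with Spns2 at 11.27 and 10.97, so no correlation is given.

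S1pr3, the receptor that couples to several G proteins and is prominent in smooth muscle and heart, read 11.62, 11.66 and 11.63 in wild-type SB lungs and 11.81, 11.85 and 11.68 after ventilation. In knockout lungs the signals were 12.03, 11.70 and 11.93 under SB and 11.77, 11.65 and 11.99 after ventilation. The wild-type groups did not overlap, with 11.66 as the highest SB and 11.68 as the lowest VILI array, and the knockout groups did. The difference was 0.14 ± 0.11 in wild type (adjusted p = 0.416) and -0.08 ± 0.11 in knockout (adjusted p = 0.626).

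The probe sets of S1pr3 did not read alike. A second gave 0.17 ± 0.15 in wild type and -0.06 ± 0.15 in knockout, close to the leading one. The third read 7.22, 8.00 and 8.02 in knockout SB lungs and 7.37, 4.86 and 3.81 in knockout VILI lungs. It fell there by 2.40 ± 0.73 log2 units (adjusted p = 0.0482 among all probe sets), while the wild-type difference was -0.21 ± 0.73 (adjusted p = 0.88). Without knockout VILI array 3 the difference was -1.63 ± 0.64 and did not pass (adjusted p = 0.134). Its lowest value came from knockout VILI array 3, on which 7.98% of 10134 probe sets that do not lead read over 1 log2 unit below their gene's leading one after each was set to its own mean, against 0.197% to 3.81% on the other arrays.

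**Figure D3:**
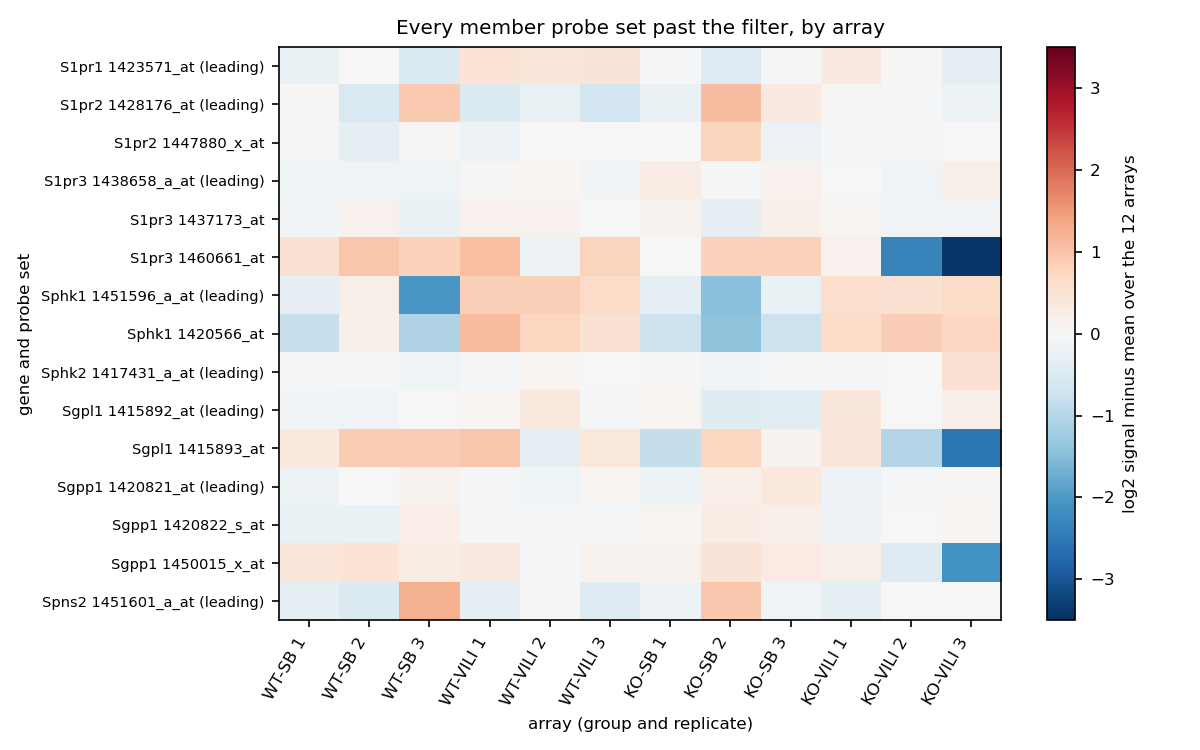
Log2 signal of each of the 15 probe sets past the filter minus its own mean over 12 arrays (colour, red above and blue below), with arrays as columns. Both Sphk1 rows are blue or near white under SB and red after ventilation, and the third probe sets of S1pr3 and Sgpp1 and the second of Sgpl1 are darkest on knockout VILI array 3.

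Among the genes that remove S1P, Sgpl1, the lyase, read 9.68, 9.67 and 9.76 in wild-type SB lungs and 9.86, 10.13 and 9.74 after ventilation. Knockout lungs read 9.87, 9.37 and 9.38 under SB and 10.19, 9.77 and 9.95 after ventilation. The groups overlapped in both genotypes. The difference was 0.20 ± 0.16 in wild type (adjusted p = 0.427), 0.43 ± 0.16 in knockout (adjusted p = 0.0788) and 0.32 ± 0.11 over both (adjusted p = 0.049).

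That last call was not firm. Leaving out 1 array at a time ended it in 9 of 12 cases, where the value ran from 0.26 to 0.33 and the adjusted p reached 0.11, and it held only without knockout SB array 1, wild-type VILI array 3 or knockout VILI array 2. It was also lost without both SB arrays that stood apart (0.29, adjusted p = 0.11) and when no dim probe sets were removed (adjusted p = 0.0739). The second Sgpl1 probe set went the other way, at -0.72 ± 0.47 over both genotypes (adjusted p = 0.259), with its lowest value, 4.74, on knockout VILI array 3, and at -0.35 ± 0.38 without that array. In knockout lungs alone the leading probe set passed without knockout SB array 1, at 0.60 (adjusted p = 0.0228).

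Sgpp1, the phosphatase, read 10.76, 10.92 and 11.06 in wild-type SB lungs and 10.89, 10.77 and 10.99 in wild-type VILI lungs. Knockout lungs read 10.76, 11.13 and 11.31 under SB and 10.73, 10.89 and 10.97 after ventilation. All 4 groups overlapped. The difference over both genotypes was -0.12 ± 0.10 (adjusted p = 0.384), with an interval from -0.34 to 0.11. The second probe set gave -0.10 ± 0.09 and the third -0.68 ± 0.32 (adjusted p = 0.425 and 0.125), the third again lowest on knockout VILI array 3, at 5.90, and at -0.35 ± 0.13 without that array (adjusted p = 0.0778).

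No member's response to ventilation passed limma's interaction test between genotypes, and no gene of the 12309 did (0% passed, with 619 at an unadjusted p under 0.05). S1pr1 had the smallest p of the 8: its response in knockout minus that in wild type was -0.52 ± 0.26 log2 units, with a 95% interval from -1.09 to 0.05 (adjusted p = 0.971). Without knockout VILI array 3 it was -0.34 ± 0.23. For Sphk1 the difference of responses was -0.22 ± 0.70, with an interval from -1.77 to 1.34 that is wider than the response itself. For Sgpl1 it was 0.23 ± 0.23 (interval -0.27 to 0.73), for S1pr3 -0.23 ± 0.16 (interval -0.58 to 0.12) and for S1pr2 0.14 ± 0.52 (interval -1.02 to 1.31). Sphk2, Sgpp1 and Spns2 gave 0.11 ± 0.19, -0.17 ± 0.20 and 0.07 ± 0.60. With both SB arrays that stood apart left out, Sphk1 gave 0.05 ± 0.20, S1pr2 0.10 ± 0.30 and Spns2 -0.11 ± 0.23. No member passed in that fit, against 0.0894% of all genes. The call of S1pr1 in wild type alone thus does not show that the genotypes differed, and the width of its interval leaves that question unresolved.

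**Figure D4:**
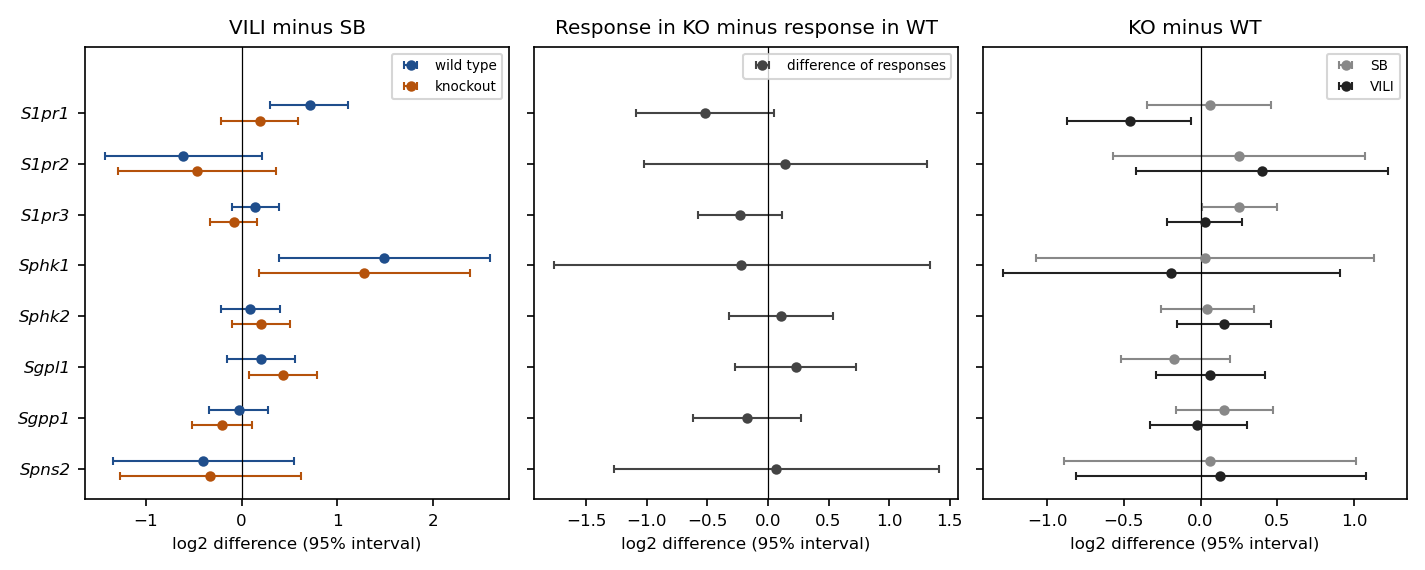
Log2 difference (horizontal axes) with its 95% interval for the 8 genes: VILI minus SB in each genotype, the difference of these responses, and knockout minus wild type under each treatment. Intervals for Sphk1, Spns2 and S1pr2 are the widest, and every interval of the difference of responses crosses 0.

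With knockout lungs set directly against wild type, no member passed under SB, where 0.0487% of all genes passed, or after ventilation, where 0.106% did. Under SB, S1pr3 was higher in knockout by 0.25 ± 0.11 (adjusted p = 1), and it was the only member whose groups did not overlap, against 6.6% of all genes. It had the only unadjusted p under 0.05 there, at 0.0461 by limma's moderated test. After ventilation the groups did not overlap for 3 members, against 20.5% of all genes. S1pr1 was lower in knockout by 0.46 (-0.46 ± 0.18, adjusted p = 0.53), S1pr2 higher by 0.40 ± 0.37 (adjusted p = 0.807) and Sphk1 lower, at -0.19 ± 0.50 (adjusted p = 0.953). S1pr1 alone had an unadjusted p under 0.05 in that comparison. The SE of each difference pools the spread of all 4 groups, SB arrays included. With both SB arrays that stood apart left out, S1pr1 gave -0.46 ± 0.15, S1pr2 0.40 ± 0.19 and Sphk1 -0.19 ± 0.13 after ventilation. No member passed in that fit, against 0.227% of all genes. Within each genotype, groups under SB and VILI did not overlap for 4 members in wild type (S1pr1, S1pr3, Sphk1 and Sphk2), against 36% of all genes, and for 1 in knockout (Sphk1), against 43.8%.

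Other genes that handle S1P moved in both directions. Of 9 tested, 1 rose and 2 fell over both genotypes, against 36.7% of all genes called. S1pr4, a receptor of lymphoid and myeloid cells, read 7.55, 7.12 and 7.80 in wild-type SB lungs and 6.81, 6.81 and 6.82 after ventilation. In knockout lungs it read 6.84, 7.52 and 7.03 under SB and 6.57, 6.60 and 6.77 after ventilation. All 6 VILI arrays lay below all 6 SB arrays, by a narrow margin (6.82 against 6.84), where 17.9% of all genes separated in either direction. Over both genotypes S1pr4 fell by 0.58 ± 0.13 (-0.58, adjusted p = 0.00818), a call that held whichever array was left out. Its call in wild type alone (-0.67, adjusted p = 0.0397) ended in 9 of 12 such cases. Sgpp2, the second S1P phosphatase, fell by 0.30 ± 0.07 (-0.30, adjusted p = 0.0108), with -0.51 ± 0.10 in wild type (adjusted p = 0.0103). In knockout its difference was -0.08 ± 0.10, with overlapping groups, and did not pass (adjusted p = 0.618). The Sgpp2 responses of the genotypes did not pass the interaction test, in which no gene did. Mfsd2b, the S1P exporter of red cells and platelets, rose by 1.03 ± 0.31 (adjusted p = 0.0267), a call that ended in 5 of 12 cases when 1 array was left out, with an adjusted p of up to 0.0586 without knockout VILI array 3. Its lowest values, 6.30 and 6.01, were on the 2 SB arrays that stood apart, and without them the rise was 0.61 (adjusted p = 0.0258). Without both SB arrays that stood apart, 2 of the 9 rose and 3 fell over both genotypes, against 34.8% of all genes called in that fit.

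In the wider metabolism of sphingosine and ceramide, 6 of 24 genes tested rose and 5 fell over both genotypes, where 14.1% of all genes were called higher and 22.6% lower. Sgms2, a sphingomyelin synthase, read 8.85, 8.98 and 8.77 in wild-type SB lungs and 10.87, 10.73 and 11.00 after ventilation. It read 8.99, 8.82 and 8.85 in knockout SB lungs and 11.15, 11.11 and 10.42 after ventilation. The groups lay more than 1 log2 unit apart in both genotypes, and Sgms2 rose by 2.00 ± 0.17 in wild type (adjusted p = 0.000234) and by 2.01 ± 0.17 in knockout (adjusted p = 2e-04). That is the largest change among the genes of the 3 pathway lists.

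A set of 4 genes of this list was called lower in each genotype, where 9.03% of all genes were called lower in wild type and 12.6% in knockout. The share of all genes called lower in both genotypes at once was not counted. Over both, the difference was -0.52 ± 0.07 for Acer2, a Golgi ceramidase that releases sphingosine (adjusted p = 0.000618), and -0.69 ± 0.10 for Cers4, a ceramide synthase (adjusted p = 0.000626). It was -0.50 ± 0.08 for Smpd2, a neutral sphingomyelinase (adjusted p = 0.000865), and -0.53 ± 0.09 for Kdsr, which acts in the making of ceramide from serine (adjusted p = 0.00145). These 4 calls over both genotypes held whichever array was left out. So did the calls in knockout alone and that of Acer2 in wild type. In wild type alone, leaving out 1 array ended the call of Cers4 in 2 of 12 cases. It ended those of Kdsr and Smpd2 in 3 of 12 cases each. Without both SB arrays that stood apart, 6 of the 24 rose and 6 fell over both genotypes, against 34.8% of all genes called in that fit.

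Cers3, a ceramide synthase for very long chains, was the only gene of these lists that passed in a genotype comparison. It read 3.43, 3.63 and 3.69 in wild-type SB lungs, 4.58, 4.71 and 4.51 in wild-type VILI lungs, 3.67, 3.60 and 3.61 in knockout SB lungs and 4.06, 3.76 and 3.84 in knockout VILI lungs. It rose by 1.02 ± 0.11 in wild type (adjusted p = 0.000505), and was lower in ventilated knockout than in ventilated wild-type lungs, at -0.72 ± 0.11 (adjusted p = 0.0405). The genotype call ended in 11 of 12 cases when 1 array was left out, with an adjusted p of up to 0.219 without knockout VILI array 2. Its response in knockout minus that in wild type was -0.76 ± 0.15 and did not pass the interaction test (adjusted p = 0.347). The Cers3 signal was dim, between 3.43 and 4.71 on all arrays. That is close to the filter of 3.056 and below the stricter filter of 7.072 used as an alternative.

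Of 20 genes tested that carry S1P receptor signals to the cytoskeleton, 2 rose and 1 fell over both genotypes, against 36.7% of all genes called. The 2 beta-arrestins, which take activated receptors off the surface, went opposite ways. Arrb1 changed by -0.76 ± 0.11 (adjusted p = 0.000885), with all 6 VILI arrays (9.89 to 10.70) below all 6 SB arrays (10.99 to 11.31). Of all genes, 17.9% separated in either direction. Arrb2 rose by 0.66 ± 0.16 (adjusted p = 0.0104), with overlap between the 6 arrays of each kind. Gna13, a G protein alpha subunit, rose by 0.26 ± 0.09 (adjusted p = 0.0415), a call that ended in 10 of 12 such cases. Arhgef1, a guanine nucleotide exchange factor, rose in knockout lungs alone, by 0.54 ± 0.15 (adjusted p = 0.0276, ended in 4 of 12 such cases), and whether its response differs from that in wild type did not pass the interaction test, in which no gene did. Without both SB arrays that stood apart, the calls of Gna13 (0.19, adjusted p = 0.126) and of Arhgef1 in knockout (0.45, adjusted p = 0.064) ended.

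**Figure D5:**
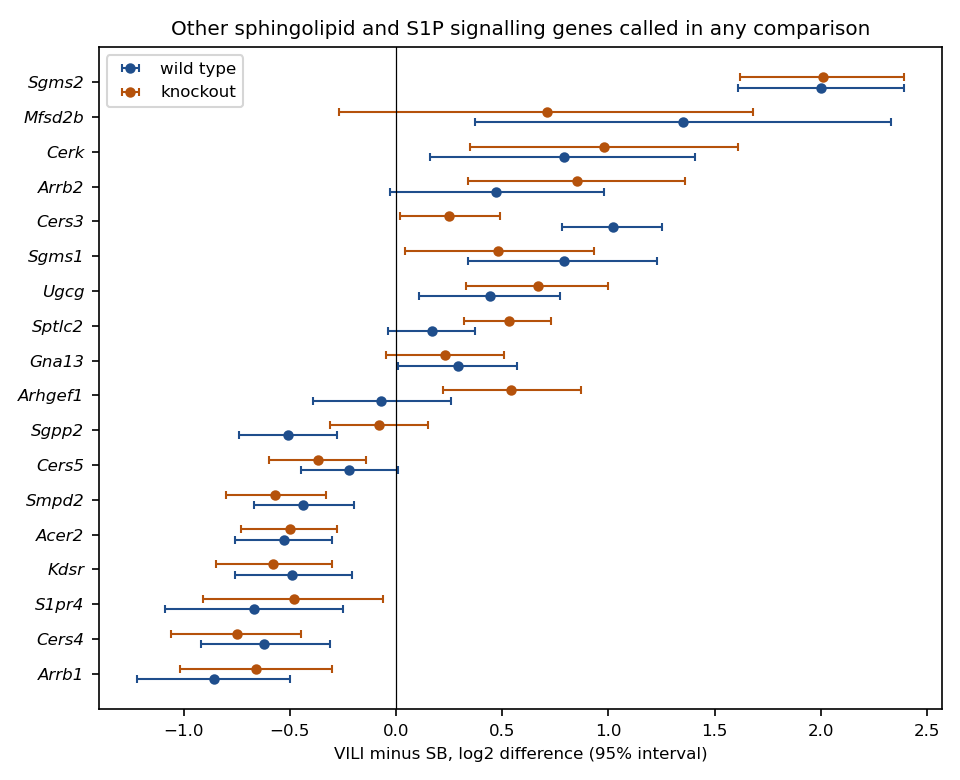
VILI minus SB log2 difference (horizontal axis) with its 95% interval in wild-type and knockout lungs, for the genes of the 3 pathway lists that passed in any comparison. Sgms2 lies at 2.00 and 2.01, and Cers3 at 1.02 in wild type and to the left of that in knockout.

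Markers of several cell types passed over both genotypes, a comparison in which 36.7% of all genes passed, 14.1% higher and 22.6% lower. Of 11 neutrophil markers tested, 9 rose over both genotypes and none fell, and their mean signal ran from 6.25 to 9.13 on SB arrays and from 9.13 to 10.65 on VILI arrays. Of 13 endothelial markers, 2 rose (Cldn5 and Esam) and 4 fell (Tek, Egfl7, Ramp2 and Eng), and their mean signal ran from 12.43 to 12.60 on SB arrays and from 12.26 to 12.47 on VILI arrays. Of 8 T and NK cell markers, 3 rose and none fell, with a mean signal from 5.82 to 6.49 on SB arrays and from 6.35 to 6.84 on VILI arrays. Of 12 smooth muscle, pericyte and fibroblast markers, 2 rose and 3 fell, and of 11 lung epithelium markers, 2 rose and 1 fell. Of 9 monocyte and macrophage markers 1 rose, and of 5 lymphatic endothelial markers 1 fell. None of 4 B cell, 4 platelet and megakaryocyte or 2 erythroid markers passed. S1pr1 is expressed by endothelial cells and lymphocytes, and Sphk1 by many cell types, neutrophils included. Over both genotypes, Sphk1 and 9 of the 11 neutrophil markers rose with ventilation. Among single arrays, the leading Sphk1 probe set was lowest on wild-type SB array 3, where neutrophil markers were high. It was next lowest on knockout SB array 2, where neutrophil markers were at their lowest. The part of these cells in the results on the S1P genes was not tested.

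Over the 12 arrays, the genes most like each member were found by Pearson's r of log2 signals, as a description over arrays that share the split by ventilation and the 2 SB arrays that stood apart. Sphk1 was closest to Snhg5 (r = 0.986) and Eln, which encodes elastin (r = 0.983). S1pr1 was closest to Chic2 (r = 0.971) and Ahcyl2 (r = 0.964), and S1pr2 to Plscr2 (r = 0.98) and Selenow (r = 0.971). Spns2 was closest to Pomgnt1 and Tifab (r = 0.967 each). Sgpl1 was closest to H13 (r = 0.949), Sphk2 to Zfp3 (r = 0.961), S1pr3 to Gdi2 (r = 0.94) and Sgpp1 to Otud5 (r = 0.924).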

How the data were processed

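The values that the authors deposited are normalized log2 signals, 1 per probe set. The submitters' processing notes name MAS5 and GCRMA, with no version and no word on which step each did, and no genome build. Of 45037 probe sets, 34945 carry 1 symbol, 932 several and 9160 none. The highest-mean probe set of each gene was kept where that mean reached the 40th percentile of all probe sets. All 12 arrays entered 1 fit of the 4 group means with limma 3.58.1 in R 4.3.3 (lmFit, eBayes), with Benjamini-Hochberg adjustment over 12309 genes and a threshold of 0.05; at 3 arrays a group the median standard error of a wild-type VILI difference was 0.148 log2 units. Simulated data of 12309 genes held changes in a small share of genes, in wild-type VILI arrays only. The noise was independent between genes, with the gene's own spread on every array. There the wild-type VILI comparison found 77% of 2-fold and 95.6% of 4-fold changes, and the test of the difference of responses 55.3% and 88.4%. The simulation had no arrays that stand apart and few changed genes, so these shares may not hold in the measured data. Named beside the 8 members were Mylk, up to 6 genes per pathway list past the threshold with the smallest p over both genotypes, and the genes most like each member. The members and all lists were chosen with earlier results of these data known. Of the pathway lists, 11 genes had no tested probe set and were not analysed here. Alternatives covered filter, scaling, probe set choice, variance model, samples in the fit, replicate block and left-out arrays. Same-numbered samples did not deviate together (r from -0.63 to 0.40 over 18 pairs, 3 above 0.1), so the numbers were not used as pairs.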

Additional observations from a re-analysis of the deposited data

How the results depend on the processing

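With 3 arrays a group, only large or tight differences could pass, and a GCRMA-type summary hides changes in total RNA. Of the alternatives to the members' log2 differences, 968 kept direction and side of the threshold, 16 gained a call, 19 lost one and 85 changed sign; the cause was not tested. The members that passed in wild type (1) became 2 with the mean over a gene's probe sets, 2 without both SB arrays that stood apart, 2 without these and knockout VILI array 3 (the last chosen after seeing the data), and 0 to 2 leaving out 1 array. In knockout (0) they became 3 with the mean over probe sets (Sphk1 higher, S1pr3 lower at -0.85 and Sgpp1 lower at -0.50), 1 and 1 in the other settings just named, then 1 with the compared arrays alone, and 0 to 1 leaving out 1 array. Over both genotypes (3) they became 1 without both SB arrays. All genes passed there at 17.9% in wild type, 19.5% in knockout and 34.8% over both. With knockout VILI array 3 left out as well, these shares were 18.7%, 16.3% and 33.9%. With the replicate block, 1 passed in wild type, 0 in knockout and 2 over both, where Sgpl1 was lost (0.32, adjusted p = 0.0602); of the other member calls none changed. Over all genes, the block left 0 called in knockout minus wild type under SB (6 without it) and 2 under VILI (13 without it). All genes called in wild type (1892) fell to 845 with the compared arrays alone and to 933 without wild-type SB array 1, those in knockout (2554) to 1232 without knockout VILI array 2. For the difference of responses (0) they reached 1 with no filter, 11 without both SB arrays, 2 without these and knockout VILI array 3, and 6 without wild-type SB array 3. Knockout minus wild type gave 0 to 19 under SB and 2 to 28 under VILI. Values that changed sign were as follows. The mean over probe sets gave, for Sgpl1, -0.09 in wild type, -0.32 in knockout, -0.20 over both, -0.23 for the difference of responses and -0.66 for knockout minus wild type under VILI. It gave -0.41 over both and -0.85 under VILI for S1pr3, -0.04 for the difference of responses of S1pr2, and 0.07 for that of Sphk1 with -0.19 under SB. Other probe sets of Sgpl1 gave -0.38, -1.07, -0.72, -0.70 and -1.38 in the same order as above. Those of S1pr2 gave 0.06 in wild type and -0.23 for the difference of responses. Those of S1pr3 gave -0.21 in wild type, -1.31 over both, -0.23 under SB, and -2.41 and -0.16 under VILI. Those of Sgpp1 gave 0.02 in wild type, -0.11 under SB and 0.03 under VILI. Those of Sphk1 gave 0.36 for the difference of responses and -0.42 under SB, and the dim one of Sphk2 gave -0.02 in knockout, -0.01 over both, -0.02 for the difference of responses and -0.01 under VILI. Equal array medians gave 0.02 for Sgpp1 in wild type. Without both SB arrays, Sgpp1 gave 0.04 in wild type, S1pr3 -0.02 over both, and Spns2 0.15 in wild type, 0.03 in knockout, 0.09 over both and -0.11 for the difference of responses, while Sphk1 gave 0.05 for the latter and -0.24 under SB. Without knockout VILI array 3 as well, Sgpp1 gave 0.04 and Spns2 0.15 in wild type, 0.06 over both and -0.16 for the difference of responses. In that setting S1pr3 gave -0.06 over both and -0.07 under VILI, Sphk1 0.03 and -0.24 under SB, and Sphk2 -0.02 in knockout, -0.09 for the difference of responses and -0.03 under VILI. Leaving out 1 array in turn moved Sgpp1 in wild type from -0.10 to 0.04, Spns2 from -0.71 to 0.15 in wild type and -0.52 to 0.03 in knockout, and S1pr3 over both from -0.02 to 0.07. The difference of responses ran from -0.25 to 0.49 for S1pr2, -0.68 to 0.45 for Sphk1, -0.07 to 0.23 for Sphk2 and -0.47 to 0.43 for Spns2. Knockout minus wild type under SB ran from -0.08 to 0.19 for S1pr1, -0.10 to 0.64 for S1pr2, -0.64 to 0.49 for Sphk1, 0 to 0.08 for Sphk2 and -0.30 to 0.61 for Spns2. Under VILI it ran from -0.07 to 0.10 for S1pr3, -0.03 to 0.27 for Sphk2, -0.05 to 0.18 for Sgpl1 and -0.07 to 0.05 for Sgpp1.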
